A study of Rattus norvegicus with 4 samples.

Results

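The genes of the proteasome were followed through a rat model of kidney donation after circulatory death, in which low molecular weight heparin and PPS were tried as perfusate additives with possible anti-inflammatory properties. Proteasome genes were taken as those whose array probe sets carry a single annotation symbol that starts with Psma, Psmb, Psmc, Psmd, Psme or Psmf and a digit. This gave 42 genes, measured by 56 probe sets, of 14218 genes with a probe set of 1 symbol, and the brightest probe set of a gene, by its mean over the 4 arrays, stands for it. Of the 42 genes, 13 encode the constitutive core particle, 17 the regulatory particle, 5 the immunoproteasome and its activator, 3 assembly chaperones of the regulatory particle, and 2 another activator and an inhibitor. The last 2 match the symbol rule without encoding subunits: Psmc3ip, a partner of the meiotic recombinases, and Psme3ip1, which binds the Psme3 activator.

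All kidneys came from male Wistar rats of 300 to 480 g and stayed in the dead animal for 29 min of warm ischaemia. A machine then perfused them for 3 h with an organ preservation fluid, cold University of Wisconsin solution. The group called cold ended there, and the groups called warm, heparin and PPS had a further 30 min of perfusion at a warm temperature with modified Krebs-Henseleit buffer, an oxygenated salt solution. The heparin and PPS groups had the additive, named in the labels only as low molecular weight heparin or PPS, in both fluids at 10 IU/ml. Kidneys without ischaemia or perfusion, and kidneys that stopped after the cold step with an additive, were not analysed here, so the warm group is the comparison for both additives. Each group was 1 array, hybridised with an equal mix of RNA from 3 kidneys. There is therefore no spread between replicates and no test, and a difference is a description of these 4 pools.

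The proteasome is the protease that breaks down proteins tagged with ubiquitin. Rings of alpha subunits form the gate of its barrel-shaped core and rings of beta subunits hold the cutting sites, while the regulatory particle docks on the end, binds ubiquitin chains, removes them and threads the protein in with a ring of ATPases. Interferon induces Psmb8, Psmb9 and Psmb10, which replace Psmb5, Psmb6 and Psmb7 in newly built cores, and the Psme1 and Psme2 activator; this immunoproteasome is abundant in leukocytes and favours peptides that are presented on class I molecules. When proteasomes are overloaded, the transcription factor Nfe2l1 raises most constitutive subunit genes together.

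The values are deposited log2 expression values. All 42 genes were above the floor on each of the 4 arrays, the floor being the median of all values at 4.51, which 9394 genes passed on at least 1 array. Over these 9394 genes the median of warm minus cold was -0.0033, and that of either additive minus warm was 0. All listed markers of proximal tubule, distal tubule and collecting duct were above the floor, as were 7 of 10 leukocyte markers. The poly-A control RNAs, spiked in before labelling, read higher on the warm than on the cold array in 24 of 24 probe sets, by a mean of 1.27. Scaling to them would put the median of all genes 1.27 lower on the warm than on the cold array, so directions between arrays here are those of the deposited scale and are set beside the median of all genes. The hybridisation controls read higher on the warm than on the cold array in 18 of 18 probe sets, by a median of 0.44. For heparin minus warm their median was -0.28, where that of the poly-A controls was 0.08. The gap between 3′ and 5′ probe sets of beta-actin was 2.79, 3.22, 3.39 and 3.19 on the cold, warm, heparin and PPS arrays. For GAPDH the gap was 0.60, 0.84, 0.72 and 0.81. The part of such array and RNA differences in the members' values was not tested. In bulk tissue, fewer cells of a type and less RNA per cell cannot be told apart.

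No proteasome gene differed by 0.5 on the log2 scale (1.41-fold) in any of the 4 comparisons. Among all genes above the floor, 14.2% differed by that much between warm and cold, 7.85% between heparin and warm, 7.08% between PPS and warm, and 3.99% between heparin and PPS. At a limit of 0.3 (1.23-fold), 2 members passed between warm and cold, Psmd4 and Psmd3, where 29.7% of all genes did. Psmb8 was the 1 member past 0.3 between heparin and warm (all genes 19.0%), and no member passed it between PPS and warm (17.0%) or between heparin and PPS (13.0%). The distance between a gene's highest and lowest array was 0.18 at the median of the 42 members and at most 0.39, for Psmd5, against a median of 0.29 over all genes. The members were also bright genes: 37 of 42 lay at or above 9.16, the middle level of all genes, and differences of all genes were smaller in that upper range, with an SD of 0.41 against 0.50 in the lower one for warm minus cold.

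A scale for technical scatter came from genes with more than 1 probe set. Over 2096 genes with a second probe set above the floor on all arrays, the warm minus cold differences of the 2 brightest probe sets lay 0.20 apart at the median and 0.55 at the 90th percentile. For heparin minus warm the same gaps were 0.15 and 0.45. The single-gene differences of members, which ran from -0.33 to 0.29 in both comparisons, are therefore of a size at which probe sets of 1 gene often differ, and the shared direction within groups of subunits is described by counts.

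**Figure D1:**
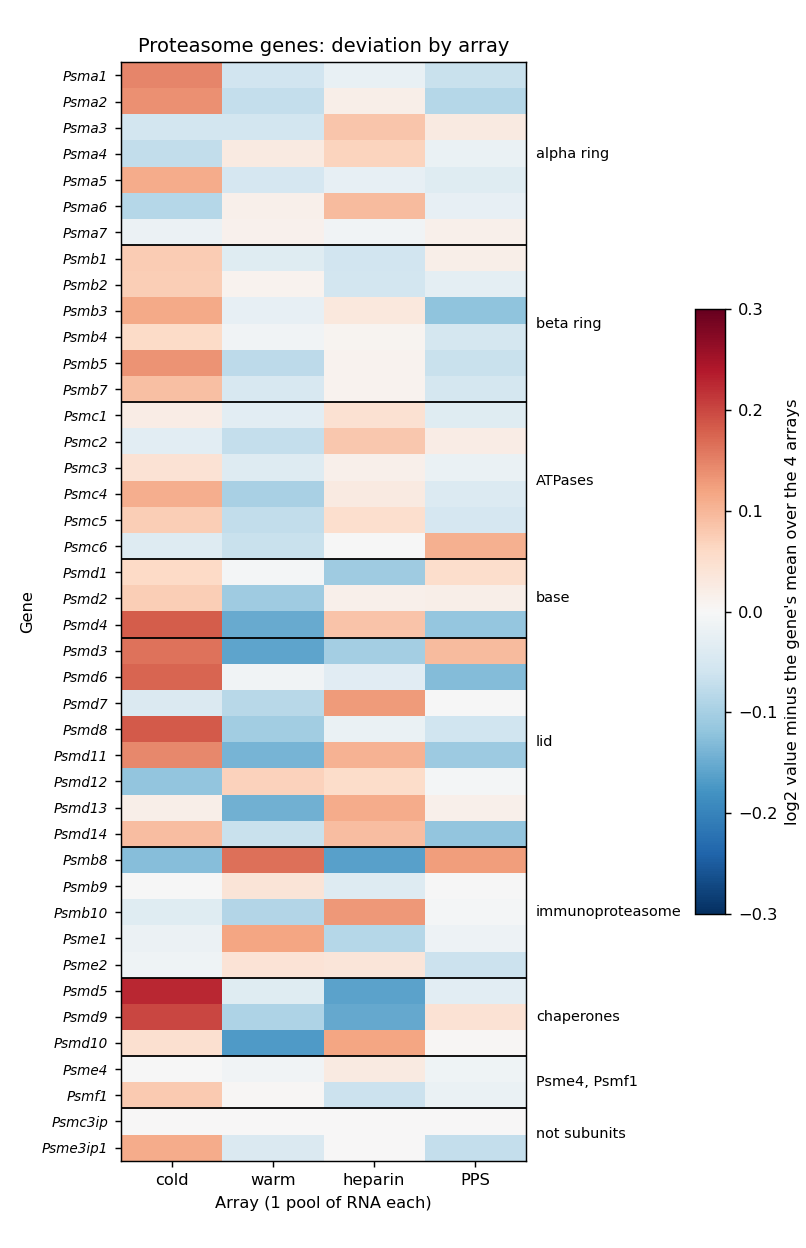
Heat map of the 42 proteasome genes (vertical axis, grouped by role) on the 4 arrays (horizontal axis); colour is the deposited log2 value minus the gene's mean over the 4 arrays, from -0.3 (blue) to 0.3 (red). On the deposited scale the cold array held the highest value for 23 of the 42 genes and the warm array the lowest for 16, while 4 of the 5 immunoproteasome genes were highest on the warm array. With arrays scaled to the poly-A controls, all 42 genes were lower on the warm than on the cold array.

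The warm array had lower values than the cold array for 32 of the 42 members and higher values for 9, and Psmc3ip read 5.77 on every array. Among all genes 50.7% were lower, and the members' median was -0.10. The cold array held the highest value for 23 members, or 54.8% of them, against 33.0% of all genes above the floor. The warm array held the lowest value for 16 members, or 38.1%, against 26.1% of all genes. The markers of proximal tubule, the main epithelium of the kidney cortex, were lower on the warm array in 7 of 7 genes, with a median of -0.24, and those of fibroblasts and pericytes in 4 of 4, with a median of -1.32. Markers of other cell types were higher on the warm array: thick ascending limb and distal tubule in 4 of 4 (median 0.47), collecting duct in 4 of 4 (0.40), podocytes in 3 of 3 (1.01) and endothelium in 3 of 3 (0.33). The part of cell composition in the members' values was not tested. With arrays scaled to the poly-A controls all 42 members were lower on the warm array, 32 of them below the shifted median of all genes and 9 above it.

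In the core particle, 9 of 13 genes were lower on the warm than on the cold array, where 50.7% of all genes were. The core median was -0.11, or -0.07 with quantile normalization. It was also -0.07 with the mean of all probe sets of a gene, but that mean takes in Psmb5 probe sets below the floor. All 6 measured genes of the constitutive beta ring were lower, by 0.06 to 0.21, and all 6 were highest on the cold array. Psmb5, the subunit with the chymotrypsin-like site, read 11.84 after cold perfusion alone, 11.63 after warm perfusion, 11.72 with heparin and 11.64 with PPS. Psmb7, the subunit with the trypsin-like site, read 11.68 after cold perfusion alone, 11.55 after warm perfusion, 11.60 with heparin and 11.54 with PPS. In both genes the cold value was highest, the heparin value came next, and the 3 warm-perfused arrays lay within 0.09 of each other. The beta ring was also lower than cold on both additive arrays, in 6 of 6 genes each, with medians of -0.10 for heparin and -0.13 for PPS, where 48.9% and 51.0% of all genes were lower. The alpha ring showed no common direction: 4 genes were higher on the warm array and 3 lower, from -0.21 for Psma2 to 0.10 for Psma6, and the median was 0.0009.

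The core was little different between the additives and the warm array. Heparin was above warm in 10 of 13 core genes, with a median of 0.04, and PPS in 5 of 13, with a median of -0.01. Among all genes, 49.9% were higher with heparin and 46.8% with PPS. The PPS median turned to 0.03 with each array centred on its median and to 0.02 with quantile normalization. Under scaling to the poly-A controls both signs turned, to -0.05 for heparin and 0.08 for PPS, beside medians of all genes of -0.07 and 0.08. The widest core difference in either comparison was 0.14, for Psma3 with heparin.

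The regulatory particle was lower on the warm than on the cold array in 16 of 17 genes, with a median of -0.16, where 50.7% of all genes were lower. The count was 15 of 17 with the mean of all probe sets or with the probe set of lowest mean. Of the 17 genes, 12 had their lowest value on the warm array, against 26.1% of all genes. The 6 ATPases of the base, which unfold substrates, were lower in 6 of 6 genes, with a median of -0.07 and a range from -0.21 for Psmc4 to -0.03 for Psmc6. With both of its other probe sets, Psmc6 was higher on the warm array. The 3 base subunits without ATPase activity were all lower, and 7 of the 8 lid genes were lower, with a median of -0.17. With arrays scaled to the poly-A controls, 16 of the 17 genes were still below the median of all genes.

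Psmd4, a ubiquitin receptor of the base, had the widest warm minus cold difference of the members. It read 10.31 after cold perfusion alone, 9.98 after warm perfusion, 10.21 with heparin and 10.01 with PPS, a difference of -0.33 (1.26-fold) for warm minus cold and 0.24 for heparin minus warm. The cold and heparin arrays were high and the warm and PPS arrays low. Psmd3, a scaffold subunit of the lid, was low on a different pair of arrays: it read 10.07 after cold perfusion alone, 9.75 after warm perfusion, 9.80 with heparin and 10.00 with PPS. Its warm minus cold difference was -0.32 (1.25-fold), and its PPS minus warm difference of 0.25 was the highest of the members.

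Psmd11, the lid subunit that clamps the regulatory particle to the core, read 11.61 after cold perfusion alone, 11.33 after warm perfusion, 11.57 with heparin and 11.36 with PPS. Psmd14, the enzyme that removes ubiquitin chains at the entrance, read 11.05 after cold perfusion alone, 10.89 after warm perfusion, 11.05 with heparin and 10.84 with PPS. Like Psmd4, both were high on the cold and heparin arrays and low on the warm and PPS arrays, with heparin minus PPS differences of 0.21 each. For Psmd14 this order held with its brightest probe set only. Its other probe set above the floor was lowest on the heparin array, with a heparin minus PPS difference of -0.13. Psmd13, another lid subunit, read 9.80 after cold perfusion alone, 9.64 after warm perfusion, 9.89 with heparin and 9.80 with PPS. It was low on the warm array alone, by 0.26 against heparin and 0.16 against both cold and PPS.

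2 lid genes departed from that pattern. By the brightest probe sets, Psmd12 was the only regulatory particle gene above its cold value on the warm array. It read 11.46 after cold perfusion alone, 11.65 after warm perfusion, 11.63 with heparin and 11.57 with PPS. The cold array was thus low for Psmd12 and the others 0.11 to 0.19 above it. Both other probe sets of Psmc6 were also higher on the warm than on the cold array, by 0.32 and 0.52. Psmd6 read 11.63 after cold perfusion alone, 11.44 after warm perfusion, 11.42 with heparin and 11.33 with PPS, so that it was lowest on the PPS array, at -0.12 against warm.

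On the heparin array 14 of the 17 regulatory particle genes were above their warm values, with a median of 0.12, while over all genes 46.3% were lower and the median was 0. The value depended on the probe set: with the probe set of lowest mean above the floor the count was 11 of 17 and the median 0.08. With the mean of all probe sets of a gene the median was also 0.08. That mean takes in probe sets of Psmc4, Psmd11 and Psmd14 below the floor. The 6 ATPases were all higher, by 0.05 to 0.15, and 6 of 8 lid genes were higher. Against the cold array, 10 of 17 genes were lower with heparin, with a median of -0.03, where 48.9% of all genes were lower. On the PPS array 13 of 17 genes were above their warm values, with a median of 0.05 (11 of 17 and 0.02 with the probe set of lowest mean). Among all genes, 46.8% were higher on the PPS than on the warm array. Psmc6, one of the ATPases, had the widest difference after Psmd3: it read 11.49 after cold perfusion alone, 11.46 after warm perfusion, 11.53 with heparin and 11.63 with PPS. The Psmc6 probe set of lowest mean gave -0.06 for heparin minus warm and -0.10 for PPS minus warm. With arrays scaled to the poly-A controls, 9 of the 17 genes were above warm on the heparin array, and 14 of the 17 were above the median of all genes. Both comparisons subtract the same warm array, so that a low value there enters both.

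Over all 42 members, heparin was above warm in 28 and below it in 13, where 46.3% of all genes were lower with heparin. PPS was above warm in 22 members and below it in 19, where 49.4% of all genes were lower with PPS. Between the additives, heparin was above PPS in 28 members and below it in 13, with a median of 0.06, where 43.5% of all genes were lower. That last direction turned with the poly-A controls, under which 39 of the 42 members were lower with heparin and the median of all genes was -0.16.

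**Figure D2:**
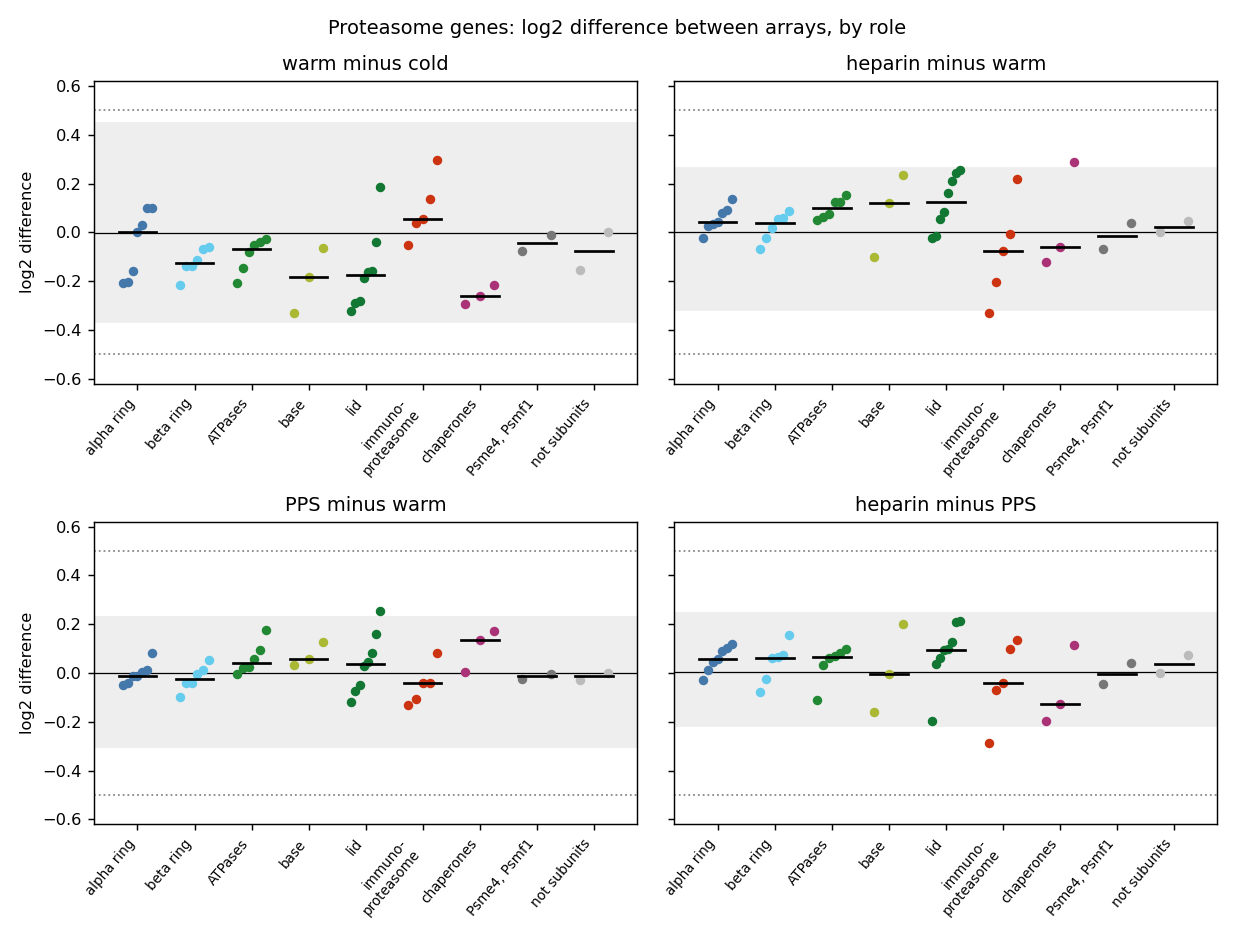
Log2 differences of the proteasome genes in the 4 comparisons (panels), with 1 point per gene grouped by role, a short black bar at each group's median, dotted lines at 0.5 and -0.5, a grey band over the middle 80% of all genes above the floor and a thin line at their median. No gene reached the dotted lines. On the deposited scale the regulatory particle genes lay mostly under 0 for warm minus cold and over 0 for heparin minus warm. Psmb8 lay under the band for heparin minus warm and heparin minus PPS. Psmd10 lay over the band for heparin minus warm, and Psmd3 for PPS minus warm. Scaling to the poly-A controls would lower the points of warm minus cold by 1.27, those of heparin minus warm by 0.09 and those of heparin minus PPS by 0.18, and raise those of PPS minus warm by 0.09.

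The 3 chaperones that build the base of the regulatory particle were all lower on the warm than on the cold array, and Psmd10 differed from the other two with the additives. Psmd5 read 10.85 after cold perfusion alone, 10.59 after warm perfusion, 10.47 with heparin and 10.60 with PPS, which left heparin 0.39 under cold. Psmd9 read 8.44 after cold perfusion alone, 8.14 after warm perfusion, 8.08 with heparin and 8.28 with PPS, again lowest with heparin. Psmd10, also known as gankyrin, had the highest heparin minus warm difference of the members, 0.29 (1.22-fold): it read 9.70 after cold perfusion alone, 9.48 after warm perfusion, 9.77 with heparin and 9.66 with PPS. The cold array was thus highest for Psmd5 and Psmd9 and the heparin array for Psmd10. Psme4, the nuclear activator, and Psmf1, an inhibitor that binds the core, differed by less than 0.08 in each of the 4 comparisons. For Psme4 this held with its brightest probe set only. Its other probe sets gave 0.13 and -0.19 for warm minus cold, and 0.14 and 0.05 for heparin minus warm.

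The immunoproteasome genes were split, and no test sets them against the constitutive genes. On the deposited scale 4 of the 5 were higher on the warm than on the cold array, with a median of 0.06, where 50.7% of all genes were lower. Heparin was below warm in 4 of the 5 (median -0.08), where 46.3% of all genes were, and 3 of the 5 with each array centred on its median. PPS was below warm in 4 of 5, with a median of -0.04, where 49.4% of all genes were and 8 of the 13 core genes also were. With arrays scaled to the poly-A controls all 5 were lower on the warm than on the cold array, with 4 of them above the median of all genes, and 4 were still below that median on the heparin array.

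Interferon-stimulated response elements, bound by factors of the Irf family, are known to take part in the control of these genes. The sequences shown here, from the RefSeq promoter windows of rat build GRCr8, hold the core letters of that element, GAAANNGAA on either strand, in capitals, with 30 bases on each side. They are shown because the immunoproteasome genes differ in whether their windows hold these letters, and matches may overlap each other. The windows run from 250 bases before to 50 bases after the gene start, and each sequence is given on the strand of its gene, 5′ to 3′. The first is at chr20:4656996-4657064 (minus strand), where the match starts at -3 from the gene start. The second, at chr19:50743271-50743395 (minus strand), holds 3 matches, of which the first 2 overlap. The third, at chr15:33052766-33052834 (minus strand), has its match at -53 from the start. The fourth, at chr20:4668625-4668693 (minus strand), belongs to Tap1, the peptide transporter gene that lies back to back with Psmb9.
Psmb8: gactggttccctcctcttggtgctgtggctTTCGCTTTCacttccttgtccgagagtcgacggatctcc
Psmb10: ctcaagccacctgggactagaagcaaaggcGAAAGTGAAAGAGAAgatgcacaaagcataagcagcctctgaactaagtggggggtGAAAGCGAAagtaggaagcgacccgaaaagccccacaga
Psme2: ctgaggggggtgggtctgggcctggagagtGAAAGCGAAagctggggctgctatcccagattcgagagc
Tap1: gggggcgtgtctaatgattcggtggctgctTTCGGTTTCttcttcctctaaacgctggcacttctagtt

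Of 33469 RefSeq promoter windows, 9.71% held these letters. Among the 38 members with a window, 8 did: 3 of 5 immunoproteasome genes, 3 of 12 core genes (Psma4, Psmb2 and Psmb3) and 2 of 14 regulatory particle genes (Psmd7 and Psmd11). The windows of Psmb9 and Psme1 held no match. The Psme1 window ended within letters that begin the element as read on the other strand, so a match across its end could not be seen. Psmb9 and Tap1 start 457 bases apart and face away from each other, and the Tap1 match lies 337 bases before the Psmb9 start, outside the Psmb9 window. The letters of the gamma-activated site, TTCNNNGAA, stood in 8.87% of all windows and in 4 of 38 members, with Psmb8 the 1 immunoproteasome gene. Those of the antioxidant response element, TGACNNNGC, which Nfe2l1 also binds, stood in 12.1% of all windows and in 7 of 38 members, and those of the heat shock element, GAANNTTC, in 8.59% and in 3 of 38.

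Psmb8, which takes the place of Psmb5, had the widest course of the immunoproteasome genes. It read 7.37 after cold perfusion alone, 7.66 after warm perfusion, 7.33 with heparin and 7.62 with PPS, so that the warm and PPS arrays were high and the cold and heparin arrays low. Its warm minus cold difference was 0.29 (1.23-fold), higher than in 84.0% of all genes, its heparin minus warm difference was -0.33 (1.26-fold), and its heparin minus PPS difference was -0.29. Its PPS minus warm difference was -0.04. Psmb10, which takes the place of Psmb7, went the other way in each comparison with the warm array: it read 6.57 after cold perfusion alone, 6.52 after warm perfusion, 6.74 with heparin and 6.60 with PPS. It was highest with heparin, by 0.22 over warm.

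Psmb9, the third inducible subunit, read 8.43 after cold perfusion alone, 8.47 after warm perfusion, 8.40 with heparin and 8.43 with PPS. It stayed within 0.08 over all 4 arrays. Psme1, the alpha subunit of the activator ring that docks on the core in place of the regulatory particle, read 12.42 after cold perfusion alone, 12.55 after warm perfusion, 12.35 with heparin and 12.42 with PPS. It was high on the warm array alone, by 0.14 over cold, 0.20 over heparin and 0.13 over PPS. Psme2, the beta subunit of the same ring, read 11.14 after cold perfusion alone, 11.20 after warm perfusion, 11.19 with heparin and 11.10 with PPS, within 0.11 over all arrays.

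At the level of mRNA, the difference of a constitutive gene was subtracted from that of the inducible gene whose product replaces it. The exchange of protein subunits itself was not measured. The resulting value does not move when all log2 values of an array shift by a constant, but it can move with quantile normalization. How often other pairs of genes reach such values was not computed. Psmb8 gained 0.51 (1.42-fold) on Psmb5 from cold to warm and was lower by 0.42 (1.34-fold) relative to Psmb5 with heparin than on the warm array. With PPS instead of heparin that second value was -0.05, and between the additives it was -0.36. Psmb10 moved relative to Psmb7 by 0.09 from cold to warm, 0.16 from warm to heparin and 0.09 from warm to PPS. The 2 pairs thus agreed in sign from cold to warm and differed in sign with either additive. With quantile normalization the values from cold to warm were 0.44 for Psmb8 and 0.02 for Psmb10. The pair of Psmb9 and Psmb6 is not analysed here, because Psmb6 is read by a probe set that carries the symbols of 2 genes.

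Markers of leukocytes, which hold much immunoproteasome, were read beside these values. Of the 10 markers listed, 7 were above the floor, and Cd68, Itgam and Cd79b were below it on all arrays. The 7 were higher on the warm than on the cold array in 5 genes, lower in 1 and equal in 1, with a median of 0.16, and lower on the heparin than on the warm array in 7 of 7, with a median of -0.28. For PPS minus warm 3 were higher and 4 lower, from -0.30 to 0.10. Their summed level on the log2 scale was 13.54, 13.56, 13.27 and 13.38 on the cold, warm, heparin and PPS arrays. That sum was carried by 1 probe set, of Lyz2, and without it the levels were 10.79, 11.05, 10.73 and 11.01, which places PPS above cold instead of below it. The pattern was not that of leukocyte markers alone: markers of podocytes, distal tubule, collecting duct and endothelium, higher on the warm than on the cold array, had heparin minus warm medians of -0.45, -0.16, -0.33 and -0.21. The part of leukocytes or of other cell types in the Psmb8 and Psme1 values was not tested.

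**Figure D3:**
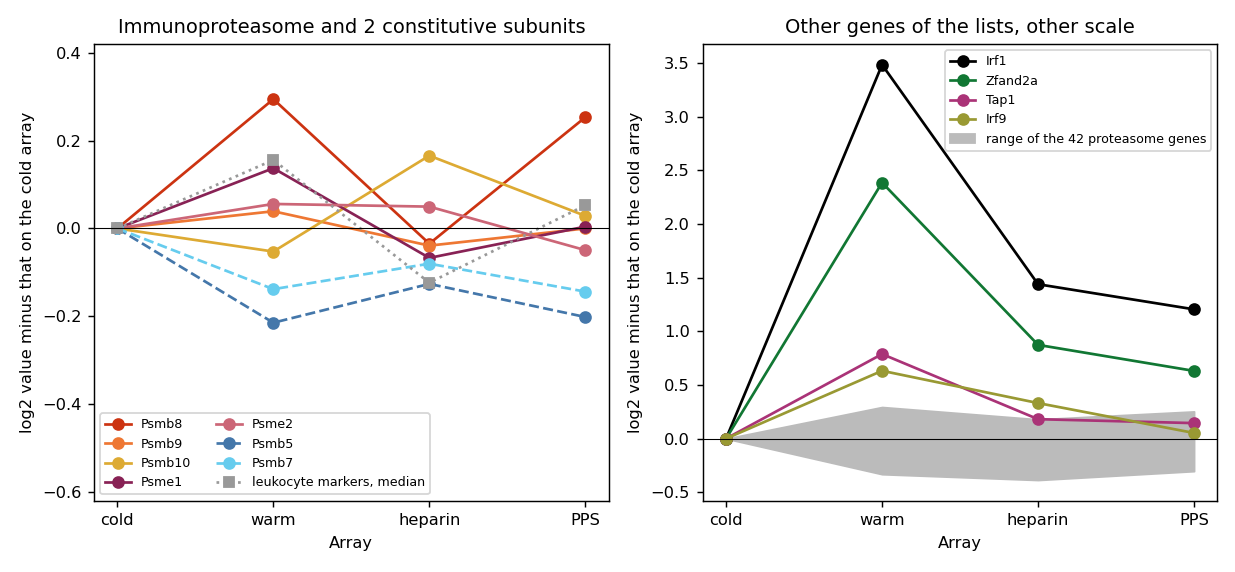
Log2 value minus that on the cold array (vertical axis) on the 4 arrays (horizontal axis), for the 5 immunoproteasome genes, the constitutive Psmb5 and Psmb7 and the median of 7 leukocyte markers (left), and for Irf1, Zfand2a, Tap1 and Irf9 beside the range of all 42 proteasome genes in grey (right, wider scale); lines join the values of 1 gene and show no time course. Psmb8 was at 0.29 on the warm array and -0.03 on the heparin array, while Irf1 reached 3.49 on the warm array. Scaling to the poly-A controls would lower the 3 warm-perfused arrays against the cold one by 1.27, 1.36 and 1.18.

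An inducer and a partner of the immunoproteasome differed by more than 0.5 where its subunits did not. Irf1, the interferon-induced factor that activates Psmb8, Psmb9, Psmb10 and Tap1, read 7.59 after cold perfusion alone, 11.08 after warm perfusion, 9.03 with heparin and 8.80 with PPS. The warm minus cold difference was 3.49 (11.2-fold), and the differences from warm were -2.05 with heparin and -2.28 with PPS. Tap1 read 6.98 after cold perfusion alone, 7.77 after warm perfusion, 7.16 with heparin and 7.12 with PPS, a warm minus cold difference of 0.79 (1.73-fold). Irf1 and Tap1 were thus low with either additive relative to warm, whereas Psmb8 was low with heparin alone.

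Of the 7 class I antigen processing genes above the floor, Tap1 was the 1 gene past 0.5 in a comparison with the warm array. Among all genes, 14.2% differed by 0.5 between warm and cold, 7.85% between heparin and warm and 7.08% between PPS and warm. B2m, the light chain of class I molecules, differed by less than 0.08 in all 4 comparisons. Tap2 and Nlrc5 were below the floor. Of the 10 interferon regulators above the floor, 3 were higher by 0.5 on the warm than on the cold array and none lower. They were Irf1, Irf8, a factor of myeloid cells, at 0.57, and Irf9, which carries the type I interferon signal, at 0.63. Over all genes above the floor, 817 of 9394 were higher by 0.5. Irf9 had a PPS minus warm difference of -0.58, and Irf8 one of 0.09. Scaled to the poly-A controls, Irf1 alone of these 4 named genes stayed higher on the warm than on the cold array.

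Among the genes that regulate or assist the constitutive proteasome, the stress partners differed most. Of the 5 regulators and stress partners above the floor, 3 differed by 0.5 between warm and cold, where 14.2% of all genes did. Between heparin and warm 1 did (all genes 7.85%), and between PPS and warm 1 (7.08%). Zfand2a, a stress-induced zinc finger protein that binds the proteasome, read 8.56 after cold perfusion alone, 10.94 after warm perfusion, 9.43 with heparin and 9.19 with PPS, a warm minus cold difference of 2.39 (5.23-fold). Zfand5, which stimulates proteasome activity, read 11.59 after cold perfusion alone, 12.14 after warm perfusion, 11.79 with heparin and 11.69 with PPS. Both were high on the warm array and lower on both additive arrays. Ddi2, the protease that cuts Nfe2l1 into its active form, was lower by 0.70 on the warm than on the cold array, and Nfe2l1 itself was higher by 0.26. Under scaling to the poly-A controls Zfand2a stayed higher on the warm than on the cold array, and Zfand5 and Nfe2l1 turned lower.

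No assembly or delivery gene but Faf2 reached 0.5 in a comparison. Among all genes, 14.2% did between warm and cold and 7.85% between heparin and warm. Between PPS and warm 7.08% did, and between heparin and PPS 3.99%. Of the 5 core assembly chaperones all 5 were lower on the warm than on the cold array and none by 0.5, with a median of -0.08. Among all genes 50.7% were lower. The 7 other subunits and partners of the regulatory particle had a median of 0.04 and none past 0.5, although Ube3c, a ubiquitin ligase that works at the proteasome, was lower by 0.49. The 6 measured genes of ubiquitin activation and delivery had a median of 0.0009. The 6 genes of the p97 segregase, which pulls ubiquitin-tagged proteins out of complexes, were all lower on the warm than on the cold array, with a median of -0.14. Faf2, its adaptor at the endoplasmic reticulum, was the 1 gene of these lists past 0.5 with an additive: it read 8.47 after cold perfusion alone, 8.05 after warm perfusion, 8.61 with heparin and 8.51 with PPS, a heparin minus warm difference of 0.56. The lists differ in level and size, and no list was tested against another.

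Several probe sets of 1 gene did not always give 1 answer. For 5 members another probe set was also above the floor, 7 probe sets in all. The 2 probe sets of Psmd11 gave -0.28 and -0.37 for warm minus cold and 0.24 and 0.15 for heparin minus warm, the same order of arrays. The 3 probe sets of Psmc6 gave -0.03, 0.32 and 0.52 for warm minus cold, so that the ATPase counted as lower with its brightest probe set was higher with both others. In the same order they gave 0.06, 0.19 and -0.06 for heparin minus warm and 0.17, 0.18 and -0.10 for PPS minus warm. Psmd14 gave -0.16 and -0.13 for warm minus cold but 0.16 and -0.15 for heparin minus warm, and 0.21 and -0.13 for heparin minus PPS. Psmd7 gave 0.21 and -0.06 for heparin minus warm. Psme4 gave -0.01, 0.13 and -0.19 for warm minus cold. The higher heparin values of Psmd14 and Psmd7 thus rest on 1 probe set each, and 33 members have no second probe set to compare.

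**Figure D4:**
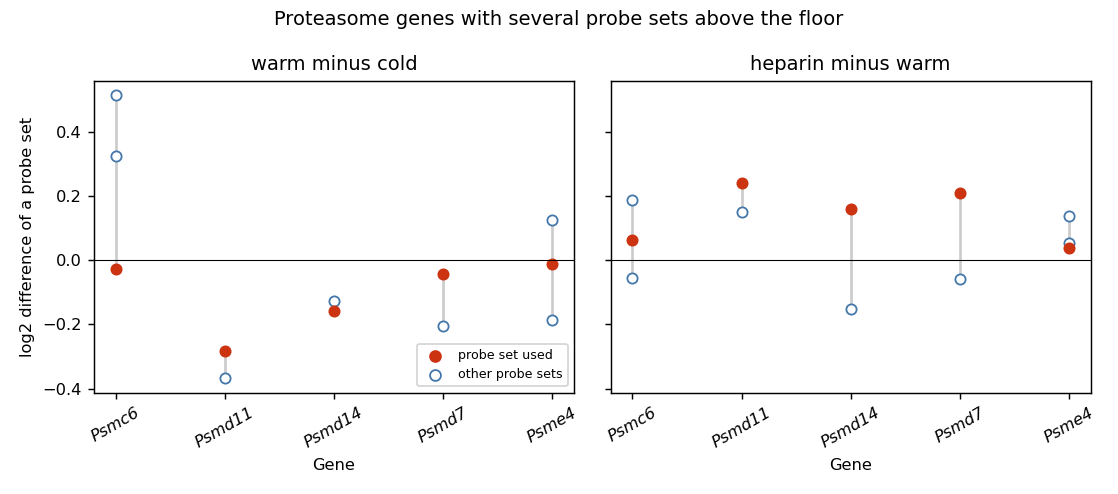
Log2 differences (vertical axis) of each probe set above the floor for the 5 proteasome genes with more than 1 such probe set (horizontal axis), for warm minus cold (left) and heparin minus warm (right); filled points are the probe sets used and open points the others, with a grey line over their range. The probe sets of Psmd11 lay on 1 side of 0 in both panels, and those of Psmc6 ran from -0.03 to 0.52 for warm minus cold on the deposited scale.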

How the data were processed

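Total RNA of rat kidney was measured on 4 Affymetrix arrays, 1 per group. The log2 values per probe set are those deposited by the authors, made with GCRMA, per the submitters' processing notes (version not given in the sources used here). No header names the scale, and values between 2.11 and 16.4 fit log2. GCRMA normalizes arrays to a common distribution, which removes a shift shared by all genes, and sets probe sets with little signal to a low constant. Of 31099 probe sets, 20832 carry a single gene symbol and 436 several. Those with several were not used, so Psmb6 and Psme3 were not analysed here, and Psma8 and Psmb11 were not analysed here either. Symbols were updated to RefSeq (GRCr8) through Entrez identifiers, found for 20764 probe sets and all 42 members. Values under 4.51, the 50th percentile, were set to it after probe sets were chosen.

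Differences of log2 values were computed for all genes with Python 3.11.15, NumPy 2.4.6 and pandas 2.3.3. With 1 array per group no p-value was computed, and the number of arrays limits the precision. Levels were set across probe sets only to place members among all genes by signal, since scatter depends on it, and to sum the leukocyte markers. Full values are given for the immunoproteasome genes, Psmb5, Psmb7 and the 3 highest and 3 lowest members of each comparison, and genes of other lists are named where they differed by 0.5. B2m, Nfe2l1 and Ube3c, and the members Psmd5, Psmd6 and Psmd12 where they are set against their group, were named after their values were seen. Members and lists were chosen with earlier results of these data known. The computation was tested on simulated data. Alternatives were other floors, scalings, probe set rules and size limits.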

Additional observations from a re-analysis of the deposited data

How the results depend on the processing

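Scaling to the poly-A controls, in place of the deposited scale, moved the medians of warm minus cold to -1.38 for the core, -1.43 for the regulatory particle and -1.21 for the immunoproteasome, and those of heparin minus PPS to -0.12, -0.11 and -0.22. All 42 members were then lower by 0.5 from cold to warm. With a size limit of 0.3, 2 members were lower on the warm than on the cold array and 1 (Psmb8) was lower in the heparin than in the warm pool. With the probe set of lowest mean above the floor, 1 member, Psmc6, was higher by 0.52 on the warm array. With the mean of all probe sets of a gene, Psmb8 gained 0.37 on Psmb5 from cold to warm, because that mean takes in 2 Psmb5 probe sets below the floor. Outside the poly-A scaling these were the 4 of 184 values of groups, pairs and counts that moved. A median counted as moved only past 0.1, so medians near 0 could turn sign without being counted, as that of the core for PPS minus warm did. A floor of 6 removed Psmc3ip. No paired analysis was possible because each group has 1 array, and no replicate could be left out. All 42 members were above the floor on all 4 arrays.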
